A study of Mus musculus with 8 samples.

Results

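The 10 genes described here are the Notch receptors Notch1, Notch2, Notch3 and Notch4, the ligands Jag1, Jag2 and Dll1, the targets Hes1 and Hey1, and Rbpj, the DNA-binding protein of the pathway. They were taken by symbol from the 22609 gene symbols counted in each library, and all 10 were present. They were chosen by their membership of the pathway and with the female-to-male differences in read counts of these same libraries in view, in which Notch1 stood out, so the differences between the sexes of these 10 genes are given as a description and support nothing.

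RNA was sequenced from sensory neurons of the dorsal root ganglion (DRG), where the cell bodies of sensory neurons lie outside the spinal cord, in 4 libraries from female and 4 from male mice. All mice were naïve C57BL/6J animals 8 to 12 weeks old with no transgene, the females were in estrous phase, and both sexes received the same tracer injection. The tracer was the lectin WGA coupled to Alexa Fluor 488, placed in hindpaw and thigh, from where it travels back along axons to the cell bodies. Labelled cells of lumbar ganglia were collected by fluorescence-activated sorting, so the preparation holds neurons that reach hindpaw skin or thigh muscle together with whatever cells kept label or stayed attached to them. The study injected 4 mice of each sex and took 6 lumbar ganglia, from both sides, for each sample, so the libraries of one sex are taken here as separate mice. Each library held 4800071 to 7329597 gene reads, and a level of 3 reads, taken as the floor, lay between 0.409 and 0.625 CPM (reads per 1e6 gene reads). All 17 neuron markers examined were well above the floor, with summed levels of 29809 to 40642 CPM in females and 31220 to 33246 CPM in males. None of the 15 satellite glia markers was at 0 in all libraries, so RNA of the glia that wrap the neuron bodies was present as well. Female replicate 4 stood apart from the other female libraries, with a chi-square of 32.3 to 48.0 per degree of freedom against them, compared with at most 12.8 for every other pair of one sex.

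Notch signalling is a contact signal between neighbouring cells. A ligand of the Jagged or Delta-like family on one cell binds a Notch receptor on the next, proteases then cut the receptor, and the freed intracellular part enters the nucleus, where it joins Rbpj and switches on genes of the Hes and Hey families. In the developing ganglion the pathway is known for holding cells back from becoming neurons and for favouring glia, and in the adult it remains in use in glia and blood vessels.

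The sequences upstream of these genes are shown first because Rbpj is a DNA-binding protein whose known site contains the letters GTGGGAA, or TTCCCAC on the other strand. The RefSeq promoter windows of build GRCm38.p6, from 250 bases before to 50 bases after each start, were searched on both strands for these letters alone. The motif was found in 2097 of 32851 windows, or 6.38%, and in at least 1 window of 1958 of 27025 genes, or 7.25%. Of the listed genes 8, all but Hes1 and Hey1, had an entry, with 10 windows between them, and 0 windows held the motif. Of the other genes of the pathway, 51 had an entry, with 69 windows between them. The motif was in 8 of these windows (11.6%), each of another gene (15.7% of the genes), namely Lfng, Psen2, Aph1a, Rbpjl, Spen, Hes5, Hes7 and Hey2, and this share was not tested. The following are the bases before the start of Notch1 (chr2:26503823-26504072, minus strand), the receptor whose levels in the sexes did not overlap, and of 3 target genes described further on, Nrarp (chr2:25180508-25180757, plus strand), Hes5 (chr4:154960673-154960922, plus strand) and Hey2 (chr10:30842781-30843033, minus strand). They run 5′ to 3′, capitals mark the motif, and the Hey2 sequence goes on past the start to the end of a match.
Notch1: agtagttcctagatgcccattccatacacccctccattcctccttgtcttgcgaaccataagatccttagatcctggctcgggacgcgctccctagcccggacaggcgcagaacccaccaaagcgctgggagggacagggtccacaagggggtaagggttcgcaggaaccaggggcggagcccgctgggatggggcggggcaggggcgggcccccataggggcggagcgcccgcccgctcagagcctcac
Nrarp: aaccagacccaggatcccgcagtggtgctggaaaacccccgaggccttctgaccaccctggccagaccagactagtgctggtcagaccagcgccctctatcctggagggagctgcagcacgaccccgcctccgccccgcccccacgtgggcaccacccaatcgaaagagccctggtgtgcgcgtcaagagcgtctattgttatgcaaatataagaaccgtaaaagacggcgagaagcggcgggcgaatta
Hes5: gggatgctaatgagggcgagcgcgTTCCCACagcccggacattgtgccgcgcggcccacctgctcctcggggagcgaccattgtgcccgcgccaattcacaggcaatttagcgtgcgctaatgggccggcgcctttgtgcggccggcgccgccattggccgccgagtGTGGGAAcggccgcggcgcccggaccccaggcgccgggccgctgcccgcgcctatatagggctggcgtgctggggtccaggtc
Hey2: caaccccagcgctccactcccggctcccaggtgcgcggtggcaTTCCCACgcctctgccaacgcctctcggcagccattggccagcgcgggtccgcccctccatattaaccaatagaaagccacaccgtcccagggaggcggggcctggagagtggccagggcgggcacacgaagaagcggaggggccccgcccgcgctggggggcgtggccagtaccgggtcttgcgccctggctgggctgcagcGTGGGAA
In Hes5 the matches began 226 and 83 bases before the start, and in Hey2 207 and 4 bases before it, while the windows of Notch1 and Nrarp had no match. A match of these letters is not evidence of a bound site, and a missing match says only that the letters are not in this window.

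Notch1 (chromosome 2, 26313423 to 26372183, minus strand, build mm9, 14232 annotated exon bases) was the most abundant receptor and the gene with the widest gap between the sexes. Its level was 51.6, 67.2, 79.4 and 72.3 CPM in female replicates 1 to 4 and 15.6, 29.3, 41.6 and 26.5 CPM in male replicates 1 to 4. Every female library lay above every male library, with male replicate 3 nearest to the females and male replicate 1 lowest. The means were 67.6 ± 11.8 CPM in females and 28.2 ± 10.7 CPM in males (SD, n = 4 each), a log2 fold change of 1.24 ± 0.26 (SE), or 2.37-fold. Without female replicate 4, the library that stood apart, the log2 fold change was 1.22. Levels without overlap in this direction were seen for 375 of the 12518 genes tested, 3.0%. The exons of Notch1 overlap those of the antisense non-coding genes Gm13568 and 0610009E02Rik over 414 and 1068 bases, and since the library protocol does not mark strand, reads from these bases cannot be told apart.

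**Figure D1:**
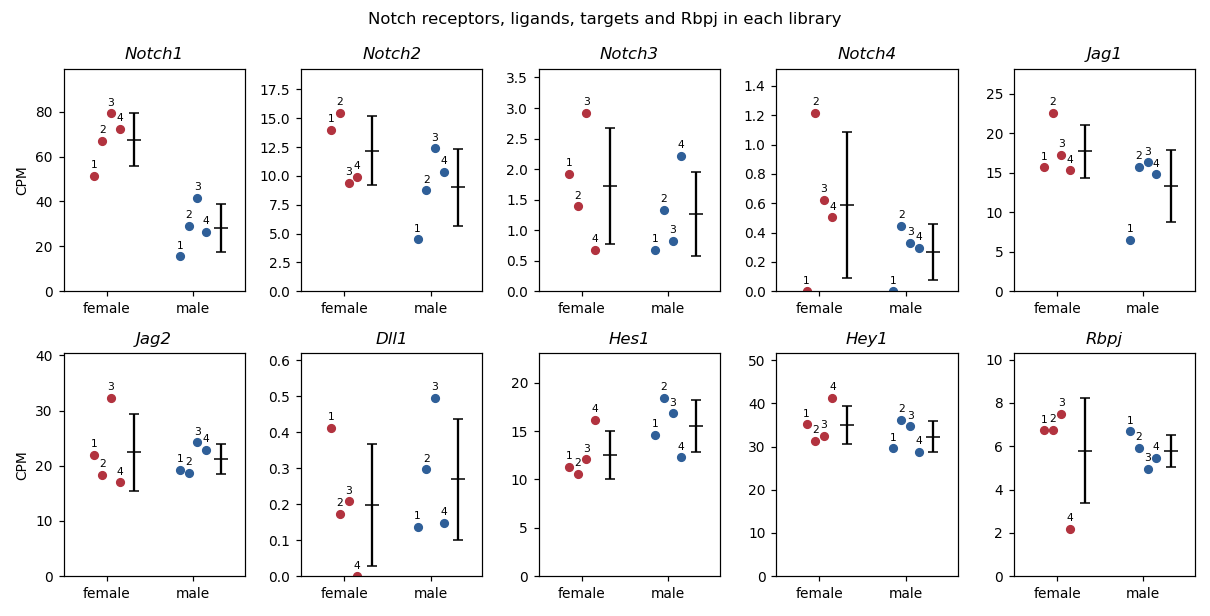
Level (CPM, y axis, linear and from 0, a scale of its own for each gene) of the 10 genes in each female (red) and male (blue) library, numbered by replicate, with mean ± SD of 4 libraries beside them. For Notch1 the lowest female library (51.6 CPM) lies above the highest male library (41.6 CPM), and in the other 9 genes the sexes overlap.

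Notch2 (chromosome 3, 97817461 to 97954290), a receptor with wide expression in many tissues, was at 14.02, 15.4, 9.37 and 9.94 CPM in the female replicates and 4.502, 8.76, 12.4 and 10.4 CPM in the male ones. The sexes overlapped, with 12.2 ± 2.997 CPM in females and 9.001 ± 3.35 CPM in males (SD, n = 4 each) and a log2 fold change of 0.43 ± 0.29 (SE). It was 0.21 without male replicate 1 and 0.04 with the satellite glia score described further on as a covariate. Male replicate 1, the lowest library for Notch1, was again the lowest.

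Notch3 (chromosome 17, 32257765 to 32303825), best known from the mural cells of blood vessels, was covered by few reads, from 4 to 14 in females and from 5 to 15 in males. Its levels of 1.92, 1.39, 2.92 and 0.674 CPM in females and 0.682, 1.34, 0.826 and 2.22 CPM in males overlapped. The summed level of 10 mural cell markers was 46.0 to 90.6 CPM in females and 78.6 to 101.5 CPM in males, and 6 of these markers had a mean under 1 CPM. Notch4 (chromosome 17, 34701213 to 34725448), a receptor of endothelial cells, had 0, 7, 3 and 3 reads in females and 0, 3, 2 and 2 in males. The 0 in female replicate 1 and male replicate 1 allows up to 0.412 and 0.409 CPM. The 12 endothelial markers summed to 62.3 to 114.9 CPM in females and 66.8 to 82.5 CPM in males, with 7 of them under 1 CPM on average. No sex difference in Notch3 or Notch4 was detectable at this depth, and both failed the expression filter. The part of vessel cells in these levels was not tested.

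Receptors can be set against each other only per length, in reads per kilobase of annotated exon and 1e6 gene reads (RPKM). On this scale the 4 receptors summed to 6.20 ± 0.732 in females and 3.03 ± 1.08 in males (SD, n = 4 each). Notch1 made up 76.3% ± 6.15 of the sum in females and 65.5% ± 4.53 in males. The libraries ranged from 69.7% to 82.3% in females and from 58.9% to 68.9% in males, so the shares of the sexes did not overlap, although female replicate 1 and male replicate 3 lay close together. Notch2 made up 19.1% ± 5.997 in females and 28.1% ± 2.12 in males, with ranges of 12.9% to 25.7% and 26.7% to 31.2%. Shares of 1 sum depend on each other, so a higher Notch1 share lowers that of Notch2, and this is not a separate difference. The Notch2 level itself had the higher mean in females, at 1.16 RPKM compared with 0.857 RPKM in males, with overlap. Notch3 contributed 3.46% and 5.44%, and Notch4 1.11% and 0.976%. The Notch4 share in females was 0.713% without female replicate 2, which held 7 of its reads. Taking the longest protein-coding transcript as the length instead raised the Notch1 share to 82.6% in females and 73.8% in males.

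**Figure D2:**
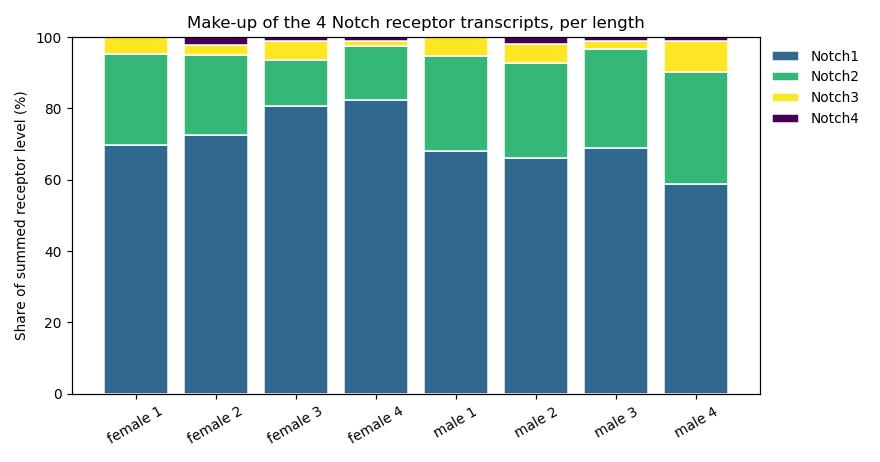
Share (%, y axis from 0 to 100) of each Notch receptor in the summed per-length level of the 4 receptors, with a stacked bar for each library. Notch1 fills 69.7% to 82.3% of the female bars and 58.9% to 68.9% of the male bars, and Notch2 most of the remainder.

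Among the ligands, Jag1 (chromosome 2, 136907192 to 136942380) was at 15.7, 22.6, 17.3 and 15.3 CPM in females and 6.55, 15.7, 16.3 and 14.8 CPM in males. The sexes overlapped, and male replicate 1 lay far below the other 7 libraries. The means were 17.7 ± 3.34 and 13.4 ± 4.58 CPM (SD, n = 4 each), with a log2 fold change of 0.39 ± 0.27 (SE). Jag2 (chromosome 12, 114146801 to 114167706), the other Jagged ligand, was at 22.0, 18.4, 32.3 and 17.0 CPM in females and 19.2, 18.7, 24.3 and 22.9 CPM in males. Female replicate 3 held the highest level and female replicate 4 the lowest, and the log2 fold change was 0.05 ± 0.21 (SE). Dll1 (chromosome 17, 15504318 to 15513836), a Delta-like ligand best known from developing tissue, had 0 to 3 reads in any library. With female replicate 4 at 0, where up to 0.505 CPM is allowed, Dll1 was at or below the floor throughout and failed the expression filter. The neighbouring antisense genes Gm17276 and A930024N18Rik share 488 exon bases with Notch3 and 867 with Dll1.

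The targets Hes1 and Hey1 overlapped between the sexes, as did Rbpj. Hes1 (chromosome 16, 30064470 to 30067882), a repressor of neuronal differentiation genes, was at 11.3, 10.6, 12.1 and 16.2 CPM in females and 14.6, 18.4, 16.8 and 12.3 CPM in males. Of the female libraries 3 lay below every male library and female replicate 4 lay within the male range. The means were 12.5 ± 2.50 CPM in females and 15.5 ± 2.68 CPM in males (SD, n = 4 each), and the log2 fold change of -0.33 ± 0.19 (SE) had the sign opposite to that of Notch1. Hey1 (chromosome 3, 8663362 to 8667039), a related repressor, was at 35.2, 31.4, 32.5 and 41.3 CPM in females and 29.6, 36.2, 34.7 and 28.8 CPM in males. Its levels overlapped, with a log2 fold change of 0.10 ± 0.14 (SE). Rbpj (chromosome 5, 53947018 to 54048684) was at 6.74, 6.77, 7.50 and 2.19 CPM in females and 6.69, 5.94, 4.95 and 5.47 CPM in males. Apart from female replicate 4, with 13 reads, the libraries of both sexes lay between 4.95 and 7.50 CPM, and the log2 fold change was -0.02 ± 0.33 (SE).

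Of the 10 genes, 7 passed the expression filter and entered the fit across all genes. By the quasi-likelihood test of edgeR, 0 of them had an adjusted p under 0.05, a level that 11 of 12518 genes, 0.0879%, reached. At an unadjusted p under 0.05 there was 1, Notch1, higher in females, and 0 were lower, where 4.44% of all genes were higher and 2.67% lower. DESeq2 gave 1 of the 7, Notch1, an adjusted p under 0.05, with 44 of 14285 genes, 0.308%, called in all, and limma-voom gave 0. Since the genes were listed with this contrast known, nothing is read from these counts.

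Per length, Hey1 was the most abundant of the 10 genes in both sexes, with 15.9 ± 2.004 RPKM in females and 14.7 ± 1.67 RPKM in males (SD, n = 4 each), above 82.3% of the 21627 genes with an annotated length. In females the order went on with Hes1 (6.15 RPKM), Jag2 (5.53 RPKM), Notch1 (4.75 RPKM) and Jag1 (3.04 RPKM). Neighbours among these 4 overlapped, while Hey1 stood clear of Hes1 and Jag1 clear of the genes below it. Then came Notch2 (1.16 RPKM) and Rbpj (0.997 RPKM), which overlapped, and, clear of these, Notch3 (0.215 RPKM), Notch4 (0.0727 RPKM) and Dll1 (0.0471 RPKM), which overlapped from neighbour to neighbour. In males Hey1, Hes1 (7.63 RPKM) and Jag2 (5.25 RPKM) each stood clear of the next gene. Jag1 (2.29 RPKM) came before Notch1 (1.98 RPKM), with overlap, so that Notch1 was at rank 5 in males and rank 4 in females. Rbpj (0.991 RPKM) and Notch2 (0.857 RPKM) followed, each overlapping the gene before it, with Notch3 (0.157 RPKM), Dll1 (0.0638 RPKM) and Notch4 (0.0332 RPKM) last, clear of Notch2. With the longest protein-coding transcript as the length, Notch1 moved above Jag2 in females (7.12 RPKM) and above Jag1 in males (2.97 RPKM).

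**Figure D3:**
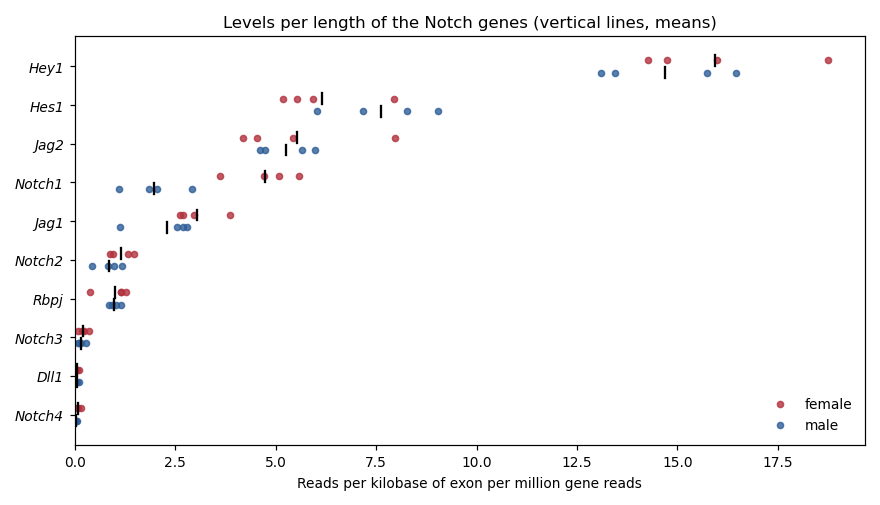
Level per length (RPKM, x axis, linear) of the 10 genes in female (red) and male (blue) libraries, with a vertical line at the mean of each sex. Hey1 lies furthest right in both sexes, at 15.9 and 14.7 RPKM, and Notch3, Dll1 and Notch4 lie near 0.

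Satellite glia markers also had higher mean levels in females. The 15 markers summed to 2683, 2783, 2766 and 3004 CPM in female replicates 1 to 4 and to 1286, 2441, 2739 and 2180 CPM in male replicates 1 to 4, with the lowest sum in male replicate 1, as for Notch1, Notch2 and Jag1. The mean was higher in females for 14 of the 15 markers, and 2 of 14 tested, Sox10 and Aldoc, had an unadjusted edgeR p under 0.05 in that direction and 0 in the other, compared with 4.44% and 2.67% of all genes. Male replicate 3 had a glial sum within the female range, and its Notch1 level of 41.6 CPM lay below the lowest female level of 51.6 CPM. Per 1000 CPM of these markers, Notch1 was at 24.0 ± 3.87 CPM in females and 12.9 ± 1.56 CPM in males (SD, n = 4 each), with ranges of 19.2 to 28.7 and 11.99 to 15.2 that did not overlap. With a glial score, the mean log2(CPM + 1) of the markers, as a covariate in the edgeR fit the log2 fold change of Notch1 was 0.94, compared with 1.24 without it. The part of the glia in the Notch1 difference was not tested. In bulk samples such as these, fewer cells of a type and less RNA per cell cannot be told apart.

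**Figure D4:**
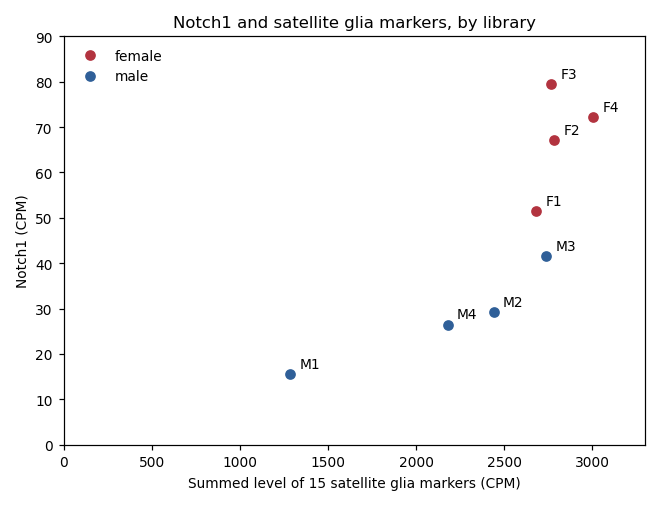
Notch1 level (CPM, y axis from 0) against the summed level of 15 satellite glia markers (CPM, x axis from 0) in each female (F, red) and male (M, blue) library. Male replicate 3 (M3) has a glial sum of 2739 CPM, between those of F1 and F2, with 41.6 CPM of Notch1, while M1 is lowest on both axes.

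Markers of other cells of the ganglion were compared in the same way. Of the myelinating Schwann cell markers 4 of 7 tested had an unadjusted edgeR p under 0.05 with higher levels in females, as did 3 of 5 fibroblast markers and 1 of 2 macrophage markers, Cd74, where 4.44% of all genes tested were higher. The summed levels were 1506 to 2064 CPM in females and 1566 to 1718 CPM in males for Schwann cells, 122.3 to 153.3 and 48.6 to 115.1 CPM for fibroblasts, and 7.01 to 13.02 and 3.002 to 8.28 CPM for macrophages. Of 4 endothelial and 4 mural markers tested, 1 each was lower in females at that threshold, as were 2.67% of all genes, and 0 were higher, and of 17 neuron markers 1 was higher, Nefh, and 1 lower, Calca. None of the markers on these 6 lists was at 0 in all libraries. Their part in the Notch1 difference was not tested.

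The rest of the pathway was taken from a list of 62 genes arranged by role, of which 51 passed the expression filter. By edgeR, 5 of the 51 (9.8%) had an unadjusted p under 0.05 with higher levels in females, compared with 4.44% of all genes, and 1 (1.96%) with lower levels, compared with 2.67%. None had an adjusted p under 0.05, with any of edgeR, DESeq2 or limma-voom. The median log2 fold change of the list was -0.02, and that of all genes 0.0034. The number of higher genes was 3 without female replicate 3, without male replicate 1 or without male replicate 3, and 8 without female replicate 4. With the glial score as a covariate it was 2.

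The targets beyond Hes1 and Hey1 held 2 of the 5 higher genes. Heyl, a Hey family repressor, was at 31.1, 24.3, 34.0 and 16.003 CPM in females and 7.50, 16.6, 15.03 and 10.2 CPM in males. Female replicate 4 alone reached into the male range. The difference was 1.08 ± 0.29 (SE) on the log2 scale, and edgeR gave it a p of 0.00376 and an adjusted p of 0.561. Nrarp, a small protein that dampens Notch signalling as feedback, was at 6.87, 15.97, 9.79 and 13.98 CPM in females and 4.37, 5.20, 8.09 and 6.95 CPM in males. Female replicate 1 lay within the male range, and the difference of 0.90 ± 0.30 (SE) on the log2 scale had an edgeR p of 0.0113 and an adjusted p of 0.637. With the glial score as a covariate the log2 fold changes were 0.67 for Heyl, with an unadjusted edgeR p of 0.0246, and 0.72 for Nrarp, with 0.0589.

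Hey2, the third Hey repressor, was at 34.0, 42.3, 33.5 and 31.3 CPM in females and 16.8, 30.004, 30.9 and 26.3 CPM in males. No female library reached down to a male one, as for 3.0% of all genes tested. The nearest libraries, female replicate 4 and male replicate 3, differed by less than 1 CPM, and the log2 fold change of 0.42 ± 0.20 (SE) had an edgeR p of 0.0545 and an adjusted p of 0.699. Hes5, the Hes gene of glial progenitors, was at 7.42, 6.77, 8.75 and 17.2 CPM in females and 10.9, 11.3, 11.4 and 10.4 CPM in males. Of the female libraries 3 lay below every male library and female replicate 4 lay above them all, and the log2 fold change was -0.15 ± 0.28 (SE). Hes6, an inhibitor of Hes1, was per length the most abundant of the 6 other genes listed as targets. It had 25.3 RPKM and a log2 fold change of 0.13 ± 0.14 (SE), and its level is not read as a measure of Notch activity. Hes7, a gene of the somite clock, had at most 0.168 CPM, under the floor.

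The remaining 4 genes past the unadjusted threshold were nuclear or turnover factors with smaller differences. Hdac2, a histone deacetylase of co-repressor complexes, was at 60.8, 97.0, 112.7 and 126.2 CPM in females and 71.2, 64.3, 63.4 and 76.3 CPM in males. Female replicate 1 was the lowest of all 8 libraries, and the other 3 female libraries lay above every male library, for a log2 fold change of 0.51 ± 0.20 (SE) at an edgeR p of 0.0283 and an adjusted p of 0.657. Ctbp1, a co-repressor and per length the most abundant of its role with 60.5 RPKM, had a log2 fold change of 0.27 ± 0.12 (SE) at an edgeR p of 0.0493 and an adjusted p of 0.698. Tle3, a Groucho family co-repressor, was at 13.1 to 21.2 CPM in females and 21.3 to 23.9 CPM in males, below every male library in all 4 females, as for 2.52% of all genes. Its log2 fold change was -0.37 ± 0.17 (SE) at an edgeR p of 0.0493 and an adjusted p of 0.698. Dtx2, a Deltex ubiquitin ligase that acts on Notch receptors, had a log2 fold change of 0.32 ± 0.14 (SE) at an edgeR p of 0.0397 and an adjusted p of 0.696. Over 15 alternatives the unadjusted p stayed under 0.05 for Hdac2 in 10, for Dtx2 in 7, for Tle3 in 6 and for Ctbp1 in 1, compared with 15 for Heyl and 14 for Nrarp. Ctbp1 and Tle3 kept it in 1 of the 8 fits that left out a library, the fit without female replicate 1. Hdac2 lost it without female replicate 3 or 4 or male replicate 2 or 3, and Dtx2 without female replicate 1 or 3 or male replicate 1, 3 or 4. The other 9 of 12 co-repressors passed at neither threshold.

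Of the genes tested that glycosylate or cut the receptors, none passed the unadjusted threshold. Of all genes tested, 4.44% passed it with higher and 2.67% with lower levels in females. With so few genes a count of 0 lies near that share, and nothing is read from it. All 10 cleavage genes were tested, with 0 at an unadjusted p under 0.05, and the median log2 fold change was -0.03. Ncstn, a subunit of the gamma-secretase that frees the intracellular part, was the most abundant per length, with 44.6 RPKM and a log2 fold change of -0.02 ± 0.10 (SE). Adam10, the protease of the first cut at the cell surface, was at 29.0 to 60.7 CPM in females and 55.7 to 65.8 CPM in males, and its difference of -0.34 ± 0.20 (SE) on the log2 scale had an adjusted edgeR p of 0.768. Among the receptor glycosylation genes, 3 of 5 were tested and 0 passed. Poglut1, which adds O-glucose to the receptor, had a log2 fold change of -0.10 ± 0.10 (SE) at 23.4 RPKM, and Rfng, a Fringe that tunes the choice of ligand, 0.22 ± 0.16 (SE) at 23.1 RPKM.

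The list held 2 canonical ligands beyond Jag1, Jag2 and Dll1. Dll3, a ligand that does not activate receptors, was at 0.446 to 3.14 CPM, and Dll4, the endothelial ligand, at 0 to 1.04 CPM. The non-canonical ligands Dner and Cntn1, surface proteins of neurons, were at 60.2 and 42.8 RPKM, above every gene among the 10 in level per length. Their log2 fold changes were -0.03 ± 0.14 and -0.11 ± 0.31 (SE). Dlk1, an inhibitory ligand, had 0 reads in every library. Mib2 and Neurl1a, ubiquitin ligases that prepare ligands for signalling, had log2 fold changes of 0.04 ± 0.17 and -0.15 ± 0.16 (SE).

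In receptor turnover Dtx2 was the 1 of 7 genes tested that passed the unadjusted threshold, higher in females as were 4.44% of all genes. Dtx3, another Deltex protein, and Fbxw7, which targets the intracellular part of the receptor for degradation, had log2 fold changes of 0.18 ± 0.17 and -0.08 ± 0.12 (SE). Of 9 co-activator genes 8 were tested and 0 passed the unadjusted threshold, where 4.44% of all genes were higher and 2.67% lower. The most abundant were Snw1 and Kat2a, partners of the activation complex, with 31.4 and 18.1 RPKM and log2 fold changes of 0.02 ± 0.13 and 0.03 ± 0.17 (SE).

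**Figure D5:**
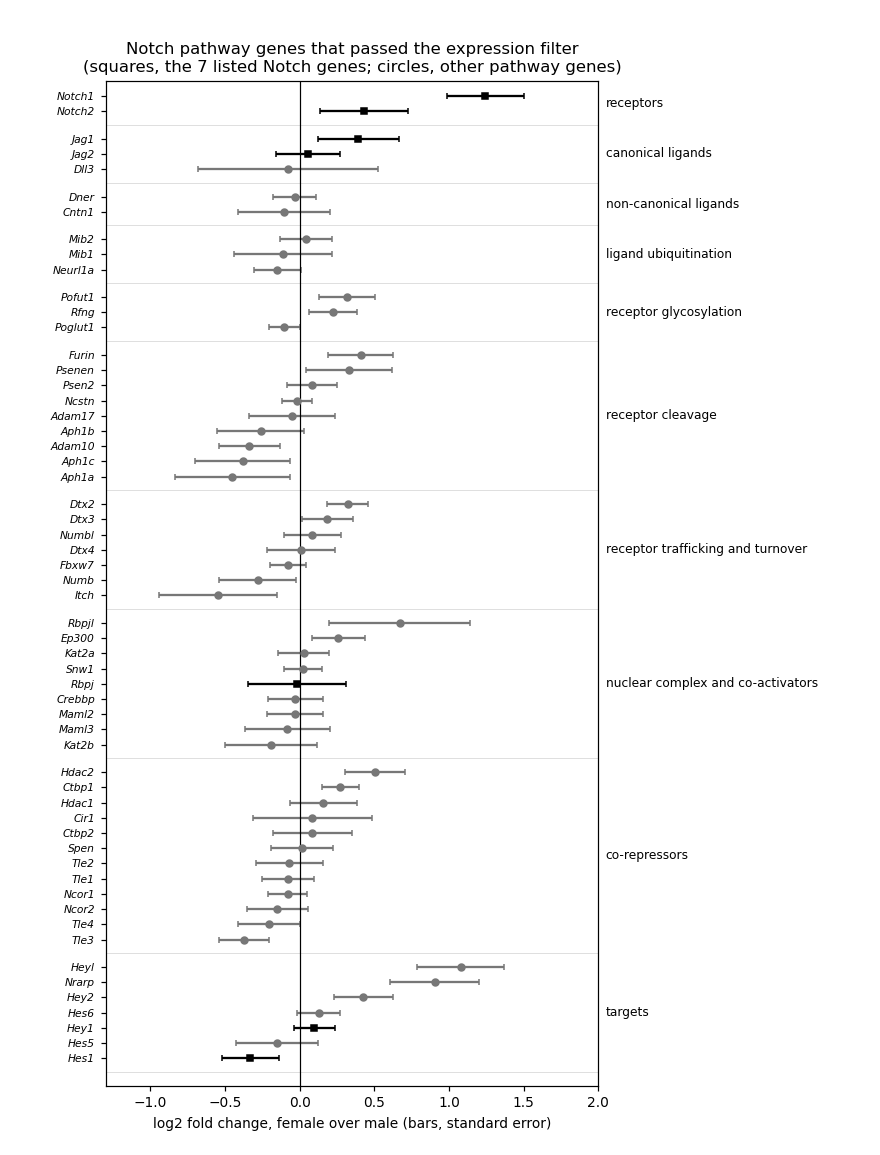
Log2 fold change, female over male (x axis, linear, bars are the standard error of the edgeR fit), of pathway genes that passed the expression filter, ordered by role, with the 7 listed Notch genes as black squares and 50 of the 51 other pathway genes tested as grey circles. Notch1 (1.24), Heyl (1.08) and Nrarp (0.90) lie furthest right, and the receptor cleavage genes lie on both sides of 0.

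The genes whose pattern over the 8 libraries was most like that of Notch1 were found by the root mean square difference of centred log2(CPM + 1) values, over 12517 other genes. A gene with the same level in every library would differ from Notch1 by 0.75 on this scale. The nearest were Metrnl (0.144), which encodes a secreted protein of the meteorin family, Ly6h (0.173), a membrane-anchored Ly6 protein, and Adssl1 (0.237), an enzyme of purine synthesis. Then came Bcan (0.257), brevican of the extracellular matrix, and Sod3 (0.272), the extracellular superoxide dismutase. Ly6h was at 23.9, 25.2, 37.1 and 37.9 CPM in females and 8.60, 14.6, 22.8 and 13.2 CPM in males, with the same lowest library in each sex as Notch1. Metrnl and Adssl1 were at 0 to 3.96 CPM, near the floor in several libraries. Of the other listed genes, Jag1 stood at rank 337, Notch2 at 653, Hey1 at 2689, Jag2 at 4454, Hes1 at 9093 and Rbpj at 10483. The nearest of the other pathway genes were Nrarp at rank 112, Heyl at 132, Rbpjl at 249 and Hey2 at 325, compared with rank 72 for the glial marker Sox10. These ranks describe shared patterns over 8 libraries and were not tested.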

How the data were processed

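Libraries were grouped by the sex in their titles (4 female, 4 male), and the titles gave the replicate numbers. The authors made libraries by SMART-seq2 (oligo-dT priming, PCR amplification), aligned single reads with TopHat2 to mm9 and counted them by gene with HTSeq, and the deposited values are raw read counts with no normalization. Tool versions, annotation release and strand option are not given in the sources used here. Without molecular identifiers PCR copies count as reads, so floors cover counting error only. The 10 genes and all lists were chosen with earlier results of these data known.

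CPM was taken over gene rows (4800071 to 7329597 reads), and counts were tested with edgeR 4.0.16 in R 4.3.3 (quasi-likelihood, TMM, default expression filter, model of sex alone), with Benjamini-Hochberg adjustment over 12518 genes. The test was checked on simulated data. Standard errors come from the estimate and its F statistic. Positions and exon lengths are from GENCODE M1 of NCBIM37 (mm9), which matched 21627 symbols (95.7%). Of the other pathway genes, those with an unadjusted p under 0.05, the 2 most abundant per length in each role and those at 0 throughout were named, with the 5 genes nearest to Notch1. Hes5, Hes7 and Adam10, outside this rule, were named after their values were seen. The values of 1 gene that the rule names are not reported here. Alternatives were DESeq2 size factors, DESeq2 1.42.0, limma-voom (limma 3.58.1), no expression filter, a replicate block, a satellite glia score (mean log2(CPM + 1) of the markers) as covariate, an exon length offset (loess span 0.3), leaving out each library and, chosen after seeing the data, transcript length. Python 3.11.15, pandas 2.3.3 and matplotlib 3.10.9 were used.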

Additional observations from a re-analysis of the deposited data

Results flagged for a closer look

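Jag1 in male replicate 1 was at 6.55 CPM, far below the other male libraries at 14.8 to 16.3 CPM, with a gap to the nearest of 0.841 of the range of the group, beyond the 95% critical value for 4 samples. Rbpj in female replicate 4 was at 2.19 CPM, below the other female libraries at 6.74 to 7.50 CPM, with a gap of 0.856 of the range. Of 56 groups of 4 libraries examined, 2 were picked out in this way, where chance gives about 2.8. Without male replicate 1 the log2 fold change of Jag1 was 0.17, and without female replicate 4 that of Rbpj was 0.26.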

How the results depend on the processing

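Notch1 had a log2 fold change of 0.94 to 1.49 over 15 alternatives, lowest with the glial covariate and highest without male replicate 3, and it remained the 1 listed gene higher in females at an unadjusted p under 0.05 in each of them. The number of listed genes past an adjusted p under 0.05 was 1 with DESeq2 and 0 to 0 leaving out 1 library. The number lower in females was 1 with the exon length offset, and 0 to 1 leaving out 1 library, the 1 being Hes1 without female replicate 4. For the other pathway genes the number higher in females was 2 with the glial covariate and 3 to 8 leaving out 1 library. The number lower was 0 with no expression filter, 2 with the exon length offset and 0 to 1 leaving out 1 library, at 0 without female replicate 2 or 3 or any 1 male library. Notch2 moved from 0.43 to 0.036 with the glial covariate and ranged from 0.21 to 0.62 leaving out 1 library. Small differences changed sign. Jag1 was at -0.012 and Jag2 at -0.074 on the log2 scale with the glial covariate, and Rbpj at 0.011 with the length offset. Leaving out 1 library, Jag2 ranged from -0.18 to 0.17, below 0 without female replicate 3 and without male replicate 2 (-0.00059), and Rbpj from -0.16 to 0.26, above 0 without female replicate 4 and without male replicate 1 (0.07). The share of Notch1 among the receptors moved to 82.6% in females and 73.8% in males with transcript length and to 72.8% in males with CPM, and that of Notch2 in males to 21.2% and 23.1%. With CPM, Notch3 made up 2.11% in females and 3.45% in males, and Notch4 0.677% and 0.618%. The cause of these shifts was not tested. Libraries of the same number in both sexes did not deviate together over all genes tested (correlations of 0.09, -0.11, 0.14 and 0.005). Such correlations cannot exclude that the numbers pair the samples. Notch1 was lowest in replicate 1 and highest in replicate 3 of both sexes. With the number as a replicate block Notch1 was at 1.30 ± 0.16 (SE), compared with 1.24 ± 0.26 without it. Its adjusted edgeR p was then 0.0838. In that fit 1 listed gene and 4 other pathway genes were higher and 1 other lower at an unadjusted p under 0.05. At an adjusted p under 0.05 there were 0. At 0 to 15 reads, no difference in Notch3, Notch4 or Dll1 could be seen.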
